A study of Homo sapiens with 15 samples.

Results

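PLAT, PLAU, PLAUR, SERPINE2 and SERPINB2 encode the plasminogen activators, the receptor that holds one of them at the cell surface, and inhibitors of both. They were taken by name from the count table of IMR90, fibroblasts derived from human fetal lung. They are 5 of the 57736 genes in that table. All 5 had a row, and all 5 passed the filter on low counts that left 15994 genes for testing. The table holds 15 libraries in 5 groups of 3: growing control, senescent control, senescent cells with shTXNRD1 (a short hairpin against the mRNA of thioredoxin reductase 1, TXNRD1), senescent cells in DMSO, the vehicle, and senescent cells treated with Tri-1, a small molecule that blocks the enzyme TXNRD1. The series asks how growing and senescent cells differ, with and without inhibition of TXNRD1. The other 4 groups are all labelled senescent. The labels give neither the inducer of senescence nor the dose and time of Tri-1, and they do not say which control hairpin, if any, the senescent control carried. Nor do they say whether replicates came from cultures of their own, so p-values measure the spread between these libraries, which may be technical.

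Plasminogen circulates as an inactive precursor made mainly by the liver, and cleavage by tissue-type activator (tPA, from PLAT) or urokinase (uPA, from PLAU) turns it into plasmin. Plasmin digests fibrin and other matrix proteins and activates further proteases. Urokinase bound to its receptor uPAR (PLAUR) turns plasminogen into plasmin at the cell surface. Protease nexin 1 (SERPINE2) and plasminogen activator inhibitor 2 (SERPINB2) are serpins, which trap their target protease irreversibly; secreted activators, matrix proteases and serpins are known parts of the secretory program of senescent fibroblasts. The genes are not the whole system, and only mRNA was measured here.

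Promoter windows of 300 bases, from 250 before to 50 after an annotated start, were matched by symbol in RefSeq (GRCh38.p14) for 4 of the 5 genes. These were PLAU, PLAUR, SERPINE2 and SERPINB2, with 6 windows in all. The chromosome that carries PLAT was left out of the search, so no window of PLAT was looked at. The 3 sequences that follow are the 250 bases before the start, 5′ to 3′ in the direction of transcription, of one window for each of SERPINB2, PLAUR and SERPINE2, shown for the element that each one holds. In the SERPINB2 sequence the capitals mark TATAAA, the TATA box. In that of PLAUR they mark an AP-1 element, which FOS and JUN proteins bind, searched as TGACTCA. For SERPINE2 they mark the CCAAT box. Matches were taken from both strands, so that some capitals read as the reverse complement. The motifs were chosen with the sequences in view.
SERPINB2, chr18:63887455-63887704, plus strand: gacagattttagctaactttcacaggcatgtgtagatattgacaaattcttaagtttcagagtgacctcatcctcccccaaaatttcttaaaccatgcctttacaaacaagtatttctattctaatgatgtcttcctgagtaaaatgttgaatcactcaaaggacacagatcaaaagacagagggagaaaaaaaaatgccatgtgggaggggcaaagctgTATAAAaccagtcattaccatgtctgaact
PLAUR, chr19:43670170-43670419, minus strand: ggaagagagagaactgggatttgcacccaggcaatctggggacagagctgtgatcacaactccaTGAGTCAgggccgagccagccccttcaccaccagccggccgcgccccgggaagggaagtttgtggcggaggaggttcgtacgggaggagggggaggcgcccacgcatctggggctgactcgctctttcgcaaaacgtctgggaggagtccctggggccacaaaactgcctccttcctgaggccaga
SERPINE2, chr2:224031479-224031728, minus strand: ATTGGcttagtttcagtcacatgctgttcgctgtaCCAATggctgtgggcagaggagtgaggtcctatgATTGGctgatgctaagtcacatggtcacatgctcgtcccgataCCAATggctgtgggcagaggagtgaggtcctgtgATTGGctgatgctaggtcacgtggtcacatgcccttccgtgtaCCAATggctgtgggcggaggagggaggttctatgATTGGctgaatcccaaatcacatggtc
The windows differ in composition. SERPINB2 held 39.0% G and C and a TATAAA whose first base is at -30 from the start, a motif found in 11.5% of all 35116 windows of the table. The PLAUR window had 64.0% G and C and an AP-1 match whose first base is at -186, on the strand opposite to transcription, against 4.9% of all windows. In the SERPINE2 window CCAAT occurred 7 times, where 34.6% of all windows had at least 1. SERPINE2 has a second window (73.7% G and C) with none of the capitalised motifs. PLAU has a window with 1 CCAAT and another with 3 GGGCGG and none of the capitalised motifs. GGGCGG was also in the SERPINE2 window with CCAAT (1 match) and in the second SERPINE2 window (2), and in 45.0% of all windows. An NF-kB element was in none of the 6 windows and in 1.9% of all. The core of the antioxidant response element, bound by NRF2, was in 13.3% of all. It was in the SERPINE2 window with CCAAT (2 matches, both in the repeat) and in the PLAU window with CCAAT (1). These are matches of letters and not measured binding.

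The libraries held 18033076 to 28909046 counts (median 21156213). Levels are CPM, counts scaled to a common library total by TMM, the edgeR method that evens out composition between libraries. TXNRD1 itself checked the hairpin label: its CPM was 506, 511 and 528 in the senescent control and 21.0, 21.6 and 25.3 with shTXNRD1, while Tri-1 and DMSO did not differ in it (log2 fold change 0.08 ± 0.07 (SE), edgeR quasi-likelihood test, adjusted p = 0.483). CDKN1A, a cell cycle inhibitor that rises in senescence, was called higher in senescent than growing controls (2.34 ± 0.10 on the log2 scale), and LMNB1, a nuclear lamin lost in senescence, lower (-3.29 ± 0.11). Fibroblast markers summed to 16000 to 21300 CPM in growing cells, 16200 to 18800 in the senescent control and 11600 to 15200 with shTXNRD1. Their sums were 14600 to 17200 in DMSO and 11200 to 11900 with Tri-1, so each intervention lay below its own control. Leukocyte markers summed to 0.595 to 2.39 CPM with CD3E at 0, and epithelial markers to 1.09 to 4.71 with KRT5, SFTPC and SCGB1A1 at 0. Endothelial markers, of a cell type that also makes PLAT, summed to 51.7 to 172 CPM: 109 to 134 in growing cells, 159 to 172 in the senescent control, 105 to 133 with shTXNRD1, 85.3 to 91.1 in DMSO and 51.7 to 55 with Tri-1. Nearly all of that sum was TEK, with group means of 50.7 to 161 CPM, highest in the senescent control. CLDN5 and VWF had their highest group mean in DMSO, as PLAT did, at 1.83 and 1.07 CPM, KDR had its own with shTXNRD1 at 8.24, and CDH5, the endothelial cadherin, was at 0 in growing cells and at 0.445 CPM at most elsewhere. The part of such cells in the PLAT levels was not tested. In 3 libraries genes of low GC content stood high against the group mean: growing control 1, shTXNRD1 3 and DMSO 1, with a Spearman correlation across genes between the library's deviation and transcript GC of -0.692, -0.672 and -0.586, against -0.459 to 0.648 in the others. Each comparison was therefore also fitted without these 3.

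**Figure D1:**
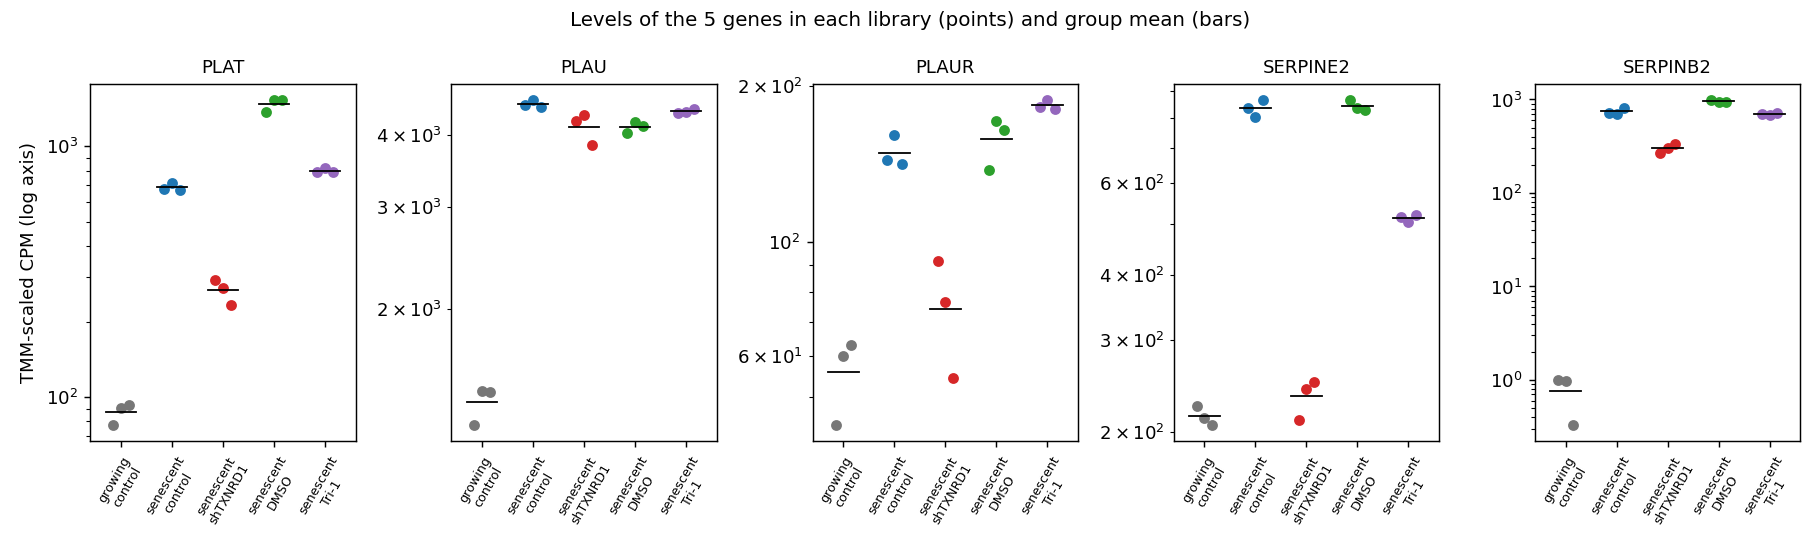
TMM-scaled CPM of the 5 genes (log axis, a separate range for each gene) in the 3 libraries of each group (points) with the group mean (bars). SERPINB2 runs from 0.329 CPM in a growing library to 990 in DMSO, PLAU is nearly level over the 4 senescent groups, and SERPINE2 with shTXNRD1 overlaps the growing libraries.

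All 5 genes rose in senescent against growing control cells, and in none did the libraries of the groups overlap. The background is high: 27.4% of the genes tested were called higher and 29.5% lower. How many of all genes lacked overlap was not counted, here or in the later comparisons, so lack of overlap only describes the libraries. Calls were made below an adjusted p of 0.05 in edgeR's quasi-likelihood test, with Benjamini-Hochberg adjustment over all genes tested; fold changes below are from that fit, with their SE. The median log2 fold change of the 5 genes was 1.96, beside 0.03 for all genes. In bulk RNA, more cells of a kind and more RNA per cell cannot be told apart.

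The activators rose together. PLAT was at 77.3, 90.7 and 92.7 CPM in the growing libraries and at 678, 711 and 672 in the senescent control. The rise was 7.91-fold (2.98 ± 0.09 on the log2 scale, adjusted p = 2.66e-12). PLAU, already abundant in growing cells at 1258, 1445 and 1435 CPM, reached 4499, 4599 and 4478, which is 3.28-fold (1.71 ± 0.06, adjusted p = 1.56e-11). PLAT thus started low and moved further, and in counts of the same library there were 0.0629 ± 0.00157 (SD, n = 3) PLAT counts per PLAU count in growing cells and 0.152 ± 0.00249 in the senescent control. PLAUR, the receptor that anchors urokinase through a lipid tail, was at 44.1, 60.1 and 63.1 CPM and then at 144, 161 and 142. Its rise of 2.67-fold was the smallest of the 5 (1.42 ± 0.17, adjusted p = 1.08e-05).

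The inhibitors rose as well, from very different starting points. SERPINB2 had only 25, 24 and 7 counts in the growing libraries (0.992, 0.986 and 0.329 CPM) and 725, 707 and 801 CPM in the senescent control. This change from near absence, 938-fold (9.87 ± 0.19, adjusted p = 1.64e-14), was the 19th highest fitted rise of the 15994 genes. SERPINE2 was at 225, 213 and 206 CPM in growing and 838, 804 and 867 in senescent control cells, a rise of 3.9-fold (1.96 ± 0.06, adjusted p = 5.16e-12). There were 6.45 ± 0.736 (SD, n = 3) PLAU counts per SERPINE2 count in growing cells and 5.42 ± 0.28 in the senescent control, and these ratios overlapped (exact permutation test, two-sided, p = 0.2). Across genes this comparison ran with transcript GC content (Spearman correlation 0.282); without the 3 libraries named above, the log2 changes were 2.9 for PLAT, 1.65 for PLAU, 1.27 for PLAUR, 1.99 for SERPINE2 and 10.09 for SERPINB2, all called.

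Levels can be compared between genes per kilobase of the longest coding transcript (GENCODE 29). On that scale, CPM per kilobase, PLAU led in all 5 groups, with 519 ± 39.5 (SD, n = 3) in growing cells and 1702 ± 24.2 in the senescent control. Behind it in growing cells came SERPINE2 at 83.5 ± 3.60, then PLAUR at 34.6 ± 6.35 and PLAT at 32.1 ± 3.09, which did not differ beyond their spread, and last SERPINB2 at 0.357 ± 0.177. In the senescent control SERPINB2 moved from last to the place behind PLAU, at 345 ± 23.1 and within the spread of SERPINE2 at 325 ± 12.2, followed by PLAT at 254 ± 7.81 and PLAUR at 92.4 ± 6.62. With shTXNRD1 the order was PLAU 1556 ± 96.2, SERPINB2 141 ± 14.9, PLAT 98.4 ± 11.6, SERPINE2 91.2 ± 8.02 and PLAUR 46.1 ± 11.6, with PLAT and SERPINE2 within their spread. In DMSO it was PLAU 1555 ± 34.3, PLAT 546 ± 33.5, SERPINB2 444 ± 13.7, SERPINE2 329 ± 7.05 and PLAUR 98.1 ± 11.1. Tri-1 libraries had PLAU at 1652 ± 17.0, SERPINB2 at 327 ± 6.87, PLAT at 296 ± 5.96, SERPINE2 at 200 ± 3.27 and PLAUR at 114 ± 2.37. PLAUR was thus the lowest of the 5 in each of the 4 senescent groups. These orders depend on the transcript chosen for the length.

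With shTXNRD1, 4 of the 5 genes fell against the senescent control and PLAU did not pass the test. In this comparison 24.8% of all genes were called lower and 25.8% higher, and the median log2 change was -1.3 for the 5 genes and -0.01 for all genes. SERPINE2 fell most, to 211, 242 and 250 CPM from 838, 804 and 867. That is 3.57-fold lower (-1.84 ± 0.06 on the log2 scale, edgeR adjusted p = 4.55e-11), and the range touches that of growing cells. PLAT dropped to 294, 273 and 232 CPM, 2.58-fold lower (-1.37 ± 0.09, adjusted p = 1.78e-08). SERPINB2 was at 271, 304 and 335 CPM, 2.46-fold lower (-1.30 ± 0.11, adjusted p = 4.74e-07) and still far above the growing libraries. PLAUR was at 91.6, 76.4 and 54.5 CPM, on average 2-fold lower (-1 ± 0.17, adjusted p = 0.000259).

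PLAU stood apart from its receptor and its inhibitors here. Its libraries were at 4228, 4331 and 3846 CPM against 4499, 4599 and 4478, all lower and without overlap, but the difference was small: -0.13 ± 0.06 on the log2 scale (95% interval -0.27 to 0.01, adjusted p = 0.092). DESeq2 called it at -0.14 (adjusted p = 0.0418), and so did a fit corrected for transcript GC content at -0.06 (adjusted p = 0.0427). The ratio of PLAU to the other transcripts differed with it. There were 20.1, 17.9 and 15.4 PLAU counts per SERPINE2 count with the hairpin and 5.37, 5.72 and 5.17 in the senescent control, a mean ratio 3.28 times as high. PLAU counts per PLAUR count were 57.8 ± 12.2 (SD, n = 3) against 30.5 ± 1.69, and PLAT counts per PLAU count 0.0643 ± 0.00473 against 0.152 ± 0.00249. The groups did not overlap in any of these ratios, but with 3 against 3 an exact permutation test cannot go below p = 0.1 (two-sided), which they reached, 0.109 after adjustment over the 12 ratio tests made.

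The PLAUR values with the hairpin spread with the GC profile of the libraries: 91.6 CPM in the library with a GC correlation of 0.648, 76.4 at 0.195 and 54.5 at -0.672. Growing control 1 and DMSO 1, the other libraries of this profile, also held the lowest PLAUR level of their group (44.1 and 138 CPM). Across genes the hairpin comparison had a Spearman correlation of -0.323 with GC content. Leaving those 3 libraries out, PLAUR was still called lower, at -0.82 (adjusted p = 1.77e-07), as were PLAT at -1.28, SERPINE2 at -1.88 and SERPINB2 at -1.37, and PLAU was at -0.08 (adjusted p = 0.072).

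**Figure D2:**
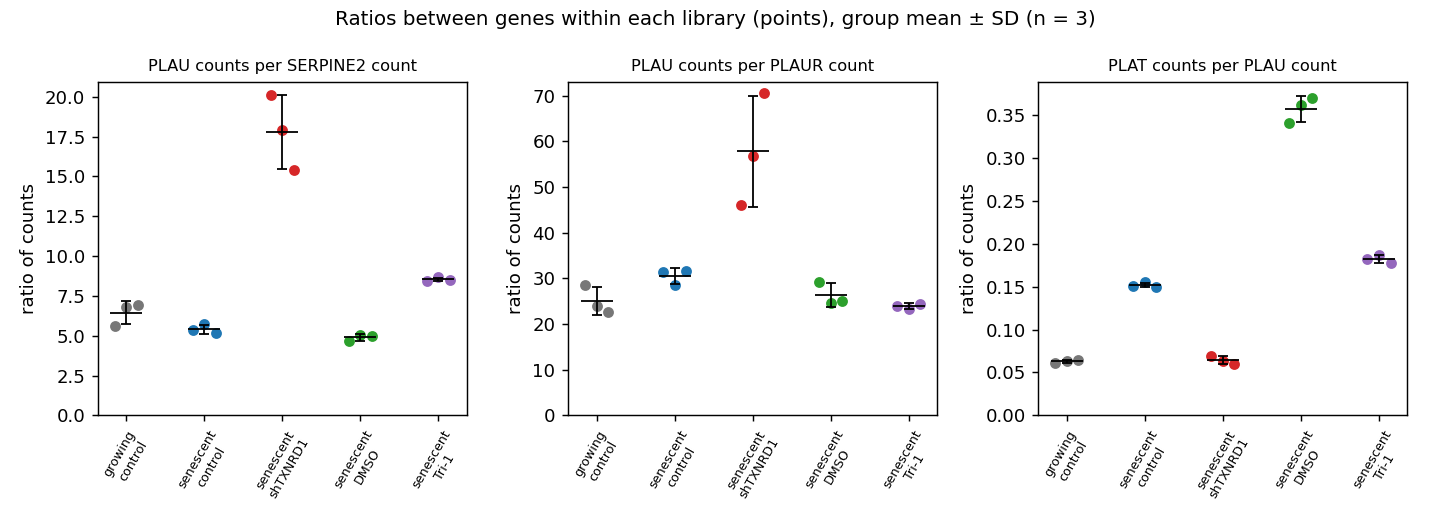
Ratio of counts between pairs of the genes within each library (points), with group mean and SD (n = 3, black). PLAU per SERPINE2 count is 15.4 to 20.1 with shTXNRD1 and at most 8.67 elsewhere, while PLAT per PLAU count is highest in DMSO.

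Set against growing cells, the hairpin libraries kept some of the senescent rise and not all of it. In this comparison 32.4% of genes were called higher and 30.5% lower; it shares the hairpin libraries with the one above. PLAU was 3-fold higher (1.58 ± 0.06, adjusted p = 2.74e-11), PLAT 3.06-fold (1.62 ± 0.09, adjusted p = 9.65e-10) and SERPINB2 382-fold (8.58 ± 0.18, adjusted p = 5.22e-14), none with overlapping libraries. SERPINE2 differed by 0.13 ± 0.06 on the log2 scale (95% interval -0.01 to 0.27, adjusted p = 0.0963), and its libraries overlapped. PLAUR was called higher by a narrow margin (0.41 ± 0.17, adjusted p = 0.048) with overlapping libraries. That call was lost under limma-voom (0.40, adjusted p = 0.0592) and without growing control 1 (0.26), growing control 2 (0.46), shTXNRD1 1 (0.23) or shTXNRD1 2 (0.39).

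With Tri-1 fewer of the genes were lower than with the hairpin, here against the DMSO control. PLAT, SERPINE2 and SERPINB2 fell, and PLAU and PLAUR did not pass the test; 12.2% of all genes were called lower and 7.64% higher. PLAT was at 791, 819 and 791 CPM with Tri-1 and at 1373, 1529 and 1531 in DMSO, 1.85-fold lower (-0.88 ± 0.09, adjusted p = 7.7e-06). SERPINE2 was at 516, 505 and 521 against 864, 837 and 830, 1.64-fold lower (-0.72 ± 0.06, adjusted p = 2.93e-06). SERPINB2 moved least of the 3, with 704, 689 and 718 CPM against 990, 947 and 932, 1.36-fold lower (-0.44 ± 0.11, adjusted p = 0.0131), and its call was lost when Tri-1 replicate 2 was left out (-0.42, adjusted p = 0.0525). In these 3 genes the Tri-1 libraries all lay below the DMSO libraries.

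For PLAU and PLAUR the Tri-1 libraries all lay above DMSO, by amounts that did not pass. PLAU was at 4356, 4375 and 4442 CPM against 4036, 4218 and 4143 (0.09 ± 0.06, 95% interval -0.05 to 0.22, adjusted p = 0.354). PLAUR was at 182, 188 and 181 CPM against 138, 171 and 165 (0.22 ± 0.16, interval -0.15 to 0.59, adjusted p = 0.395). The interval for PLAUR does not reach the log2 change of -1 seen with the hairpin. There were 8.54 ± 0.112 (SD, n = 3) PLAU counts per SERPINE2 count with Tri-1 and 4.90 ± 0.201 in DMSO, without overlap (exact permutation test, two-sided, p = 0.1). Across genes the comparison followed GC content with a Spearman correlation of 0.313, and without the 3 libraries of low GC profile the log2 changes were -0.94 for PLAT, -0.70 for SERPINE2, -0.42 for SERPINB2, 0.07 for PLAU and 0.13 for PLAUR, with the same 3 called.

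The hairpin and the inhibitor effects differed in 4 of the 5 genes, each time with the hairpin effect lower; 19.5% of all genes had a difference called lower and 22.1% higher. This is the change with shTXNRD1 from the senescent control less the change with Tri-1 from DMSO, tested as one contrast of all 4 groups. PLAUR had the widest gap, -1.22 ± 0.24 on the log2 scale (edgeR adjusted p = 0.00117), then SERPINE2 with -1.12 ± 0.09 (adjusted p = 3.86e-07) and SERPINB2 with -0.85 ± 0.16 (adjusted p = 0.000752). PLAT differed by -0.48 ± 0.12 (adjusted p = 0.00566), and by -0.29 after correction for GC content, with which this contrast was correlated at -0.421 across genes. PLAU did not pass, at -0.22 ± 0.09 (interval -0.41 to -0.03, adjusted p = 0.0577), but passed in DESeq2 (adjusted p = 0.0246), in limma-voom (adjusted p = 0.0335), with the compared groups alone, without shTXNRD1 1 (-0.24) or shTXNRD1 2 (-0.26), and without the 3 libraries of low GC profile (-0.15). It did not pass and was smaller with GC correction (-0.07, adjusted p = 0.0728) and with upper-quartile scaling (-0.14, adjusted p = 0.22), and over all alternatives the adjusted p ran from 0.0246 to 0.253. The dose and time of neither intervention are given, so the contrast compares these preparations.

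**Figure D3:**
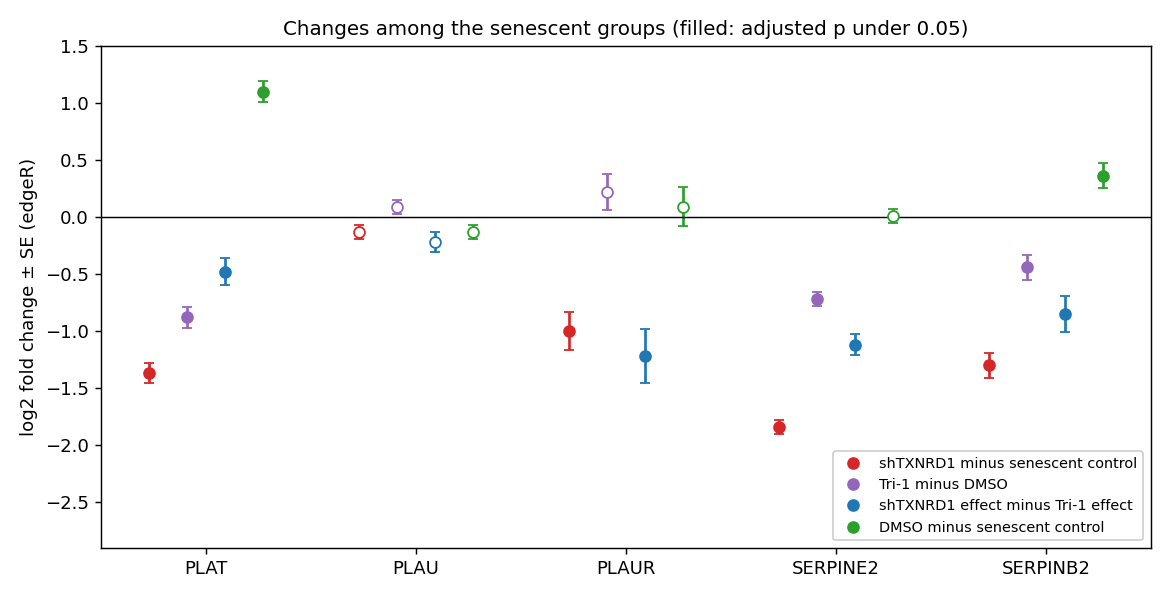
Log2 fold changes with SE from the edgeR fit for the 5 genes in 4 comparisons among senescent groups; filled points passed an adjusted p of 0.05. PLAU stays within 0.3 of no change in all 4, PLAUR is lower with shTXNRD1 but not with Tri-1, and PLAT alone is high in DMSO against the senescent control by about 1 log2 unit.

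The 2 senescent controls differed in PLAT. They also differed in LMNB1, which was 1.91-fold higher in DMSO (0.93 ± 0.10 on the log2 scale, adjusted p = 4.05e-05) and lower with Tri-1 than in DMSO (-0.85 ± 0.10, adjusted p = 6.52e-05): its group means were 5.88 CPM in the senescent control, 11.3 in DMSO and 6.22 with Tri-1, against 57.8 in growing cells. The part of this difference in the PLAT values was not tested. PLAT was 2.15-fold higher in DMSO than in the senescent control (1.1 ± 0.09, edgeR adjusted p = 1.88e-06), and the Tri-1 libraries at 791 to 819 CPM lay above the senescent control at 672 to 711 as well. Between these controls 8.36% of genes were called higher in DMSO and 7.87% lower. SERPINB2 was also called higher (0.36 ± 0.11, adjusted p = 0.0426), at 932 to 990 CPM in DMSO and 707 to 801 in the senescent control, without overlap. Its call was lost when any of the 6 libraries was left out, senescent control 1, 2 or 3 (0.34, 0.33 and 0.42) or DMSO 1, 2 or 3 (0.34, 0.37 and 0.38). The size of its change was thus kept in these fits, in which PLAT was the only 1 of the 5 called. SERPINE2 at 830 to 864 CPM overlapped the senescent control (0.01 ± 0.06, interval -0.13 to 0.15), and so did PLAUR (0.09 ± 0.17, interval -0.28 to 0.45). PLAU was lower in all 3 DMSO libraries, by 0.13 ± 0.06 (adjusted p = 0.175); it was called at -0.09 with GC correction. The senescent control enters this comparison, the hairpin comparison and that with growing cells. The labels do not say how the controls differed beyond DMSO, so vehicle and preparation cannot be told apart.

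Tri-1 libraries remained above growing cells in all 5 genes, without overlap, where 30.3% of genes were called higher and 32.3% lower. The log2 differences were 3.20 ± 0.09 for PLAT, 1.67 ± 0.06 for PLAU, 1.72 ± 0.17 for PLAUR, 1.26 ± 0.06 for SERPINE2 and 9.79 ± 0.19 for SERPINB2 (edgeR adjusted p of 1.57e-06 for PLAUR and at most 5.14e-10 for the others). SERPINE2 thus kept a 2.39-fold excess over growing cells with Tri-1.

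As a description over the 15 libraries, which share groups, the log2 levels of PLAU and SERPINB2 had a Pearson correlation of 0.981, the highest of the 10 pairs. Those of PLAU and SERPINE2 had 0.638, the lowest. Such correlations span the rise from growing cells, where SERPINB2 had 7 to 25 counts. Among the senescent groups PLAU was nearly level and SERPINB2 was not: mean CPM was 4132 to 4525 for PLAU and 303 to 956 for SERPINB2. Among the 11911 genes whose mean log2 CPM reached 1, the ones most like each member were found by the same measure. Most like PLAT were P4HA2, a collagen prolyl hydroxylase (0.995), the collagen COL10A1 (0.991) and the neuronal adhesion protein NTM (0.99). COL10A1 went from 0.0289 CPM in growing cells to 19.6 in the senescent control, 1.78 with shTXNRD1, 54.1 in DMSO and 21.8 with Tri-1, with the same peak in DMSO as PLAT. PLAU was most like CSF3, the granulocyte growth factor (0.997), VEGFA, the vascular growth factor (0.997), and CDKN1A (0.995). VEGFA had 58 CPM in growing cells and 286 to 299 in all 4 senescent groups, level as PLAU was. PLAUR was most like the collagen COL27A1 (0.993), the lysosomal protein CD68 (0.992) and the small GTPase RAC2 (0.992), and RAC2 had 87 CPM in the senescent control, 14.6 with shTXNRD1 and 134 with Tri-1. SERPINE2 was most like EML1, a microtubule binding protein (0.995), RASGRP3, a Ras activator (0.993), and the collagen COL8A1 (0.992). SERPINB2 was most like IL1A, the cytokine interleukin 1 alpha (0.997), SEMA6D, a semaphorin (0.997), and MMP3, stromelysin 1 (0.997); IL1A was at 0.0558 CPM in growing cells, 345 in the senescent control, 123 with shTXNRD1, 416 in DMSO and 309 with Tri-1.

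The other genes of the system were taken from 7 lists. Of the zymogen and the proteases that can activate the cascade, 2 of 7 passed the filter. PLG, the zymogen itself, had 0 to 7 counts in every library, and F12, ST14, HPN and HABP2 at most 4. CTSB, the lysosomal protease cathepsin B, was at 1019 to 1190 CPM in growing cells and 2746 to 2880 in the senescent control (1.32 ± 0.07, adjusted p = 7.61e-10), fell slightly with the hairpin (-0.22 ± 0.07, adjusted p = 0.0138) and did not pass with Tri-1 (0.01 ± 0.07). KLKB1, plasma prekallikrein, rose in senescent control cells but stayed at no more than 1.49 CPM in any group. Counts in this and the next lists stand beside the shares over all genes, which were 27.4% higher and 29.5% lower in senescent control cells (median log2 change 0.03), 25.8% and 24.8% with shTXNRD1 (median -0.01), and 7.64% and 12.2% with Tri-1 (median 0.01).

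A list of 11 genes was drawn up for plasminogen binding at the surface and clearance of activators and their complexes. Of these, 4 were called higher and 3 lower in senescent control cells (median log2 change 0.50, all genes 0.03). THBD, thrombomodulin, is a thrombin receptor listed with them and not a receptor of either kind. It rose from 0.123 to 0.329 CPM to 28.8 to 30.2 (7.19 ± 0.17), and VLDLR, an endocytic receptor, rose by 1.53 ± 0.11. S100A10, the plasminogen binding partner of annexin A2, fell by 0.96 on the log2 scale, from 247 to 300 CPM to 134 to 148. With shTXNRD1, 3 of the 11 were called higher and 5 lower (median -0.32, all genes -0.01). S100A10 fell further to 44.8, 50.5 and 59.8 CPM (-1.43 ± 0.09, adjusted p = 2.42e-08), and PLGRKT, a plasminogen receptor, fell too (-0.62 ± 0.10, adjusted p = 0.000131). With Tri-1, 3 were higher and 2 lower (median 0, all genes 0.01), and S100A10 moved the opposite way, to 159, 156 and 163 CPM from 124, 120 and 118 in DMSO (0.40 ± 0.09, adjusted p = 0.00713). ENO1, a glycolytic enzyme that also binds plasminogen, was likewise lower with the hairpin (-0.32 ± 0.08) and higher with Tri-1 (0.32 ± 0.08, adjusted p = 0.00769).

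Other inhibitors had 4 of 8 genes above the filter, and SERPINF2, the main plasmin inhibitor, had at most 3 counts in any library. In senescent control cells 3 of the 4 were higher and 1 lower (median 1.02, all genes 0.03, of which 27.4% were higher and 29.5% lower). TFPI2, an inhibitor of plasmin and related proteases in the matrix, rose from 101 to 113 CPM to 1087 to 1160 (3.41 ± 0.06, adjusted p = 1.5e-14), and A2M, a broad protease trap, fell (-1.83 ± 0.08). With shTXNRD1, 1 was higher and 2 lower (median -0.43): TFPI2 dropped to 607 to 641 CPM (-0.84 ± 0.06), SERPING1, the C1 inhibitor, fell (-1.27 ± 0.11), and SERPINI1, neuroserpin, an inhibitor of tPA, rose from 8.06 to 8.45 CPM to 13.6 to 15.7 (0.82 ± 0.11, adjusted p = 2.16e-05). SERPINI1 went against SERPINE2 and SERPINB2 with the hairpin, at a low level. With Tri-1 none were higher and 2 lower (median -0.34): A2M from 35.0 to 35.8 CPM to 14.2 to 14.7 (-1.30 ± 0.08) and SERPINI1 (-0.41 ± 0.11), while TFPI2 was at 0.02 ± 0.06.

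PLAUR has no part inside the cell and signals through integrins and other receptors. Of 9 tested partners and matrix ligands of 11 listed, 6 were called higher and 3 lower in senescent control cells (median 0.56), among them EGFR (0.69 ± 0.05) and the integrin chain ITGB3 (0.63 ± 0.05). With the hairpin none were higher and 6 were lower (median -0.52, all genes -0.01, of which 25.8% were higher and 24.8% lower). The 6 include VTN and ITGA3, named here after their values were seen. VTN had only 11, 10 and 6 counts in the senescent control and 1, 4 and 0 with shTXNRD1. ITGA3 was at 156, 114 and 73.8 CPM in the hairpin libraries, falling in the same library order as PLAUR. ITGB3 went from 195 to 196 CPM to 80.1, 92.3 and 89.2 (-1.17 ± 0.05, adjusted p = 5.94e-10), and ITGB5, which pairs with the same alpha chain in vitronectin binding, fell by 1.05 on the log2 scale. With Tri-1, 1 was higher, EGFR at 0.19 ± 0.05, and 3 were lower (median -0.10), including ITGAV (-0.66 ± 0.09) and ITGB3 (-0.31 ± 0.05).

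SERPINB2 belongs to the clade B serpins, which lie mostly inside cells. Of 12 other members, 7 were tested, and 4 were called higher and 1 lower in senescent control cells (median 1.27, also with the genes without a growing count set at their bound). SERPINB4 had no count in the 3 growing libraries and 33.0, 33.0 and 33.5 CPM in the senescent control, at least 783-fold higher when the growing group is set at a total of 3 counts. It was at 0.250, 0.569 and 0.694 CPM with shTXNRD1 (5, 13 and 14 counts). SERPINB4 and SERPINB3, named here after its values were seen, are close paralogs whose reads may have been split in counting; SERPINB3 followed at a lower level, with 25, 28 and 33 counts in the senescent control and 0, 0 and 1 with the hairpin. SERPINB7 rose in senescent control cells (3.65 ± 0.13), and SERPINB9, the granzyme B inhibitor, fell (-2.17 ± 0.08). With the hairpin none of the 7 were higher and 5 were lower (median -0.36), SERPINB6 by 0.59 ± 0.05. With Tri-1, 1 was higher and 3 were lower (median -0.43), SERPINB4 to 10.4, 9.38 and 10.2 CPM from 20.7, 19.7 and 19.3 (-0.99 ± 0.13) and SERPINB9 by -0.69 ± 0.09.

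Among 8 tested substrates of plasmin of 11 listed, 3 were higher and 3 lower in senescent control cells (median 0.21), close to the shares over all genes of 27.4% higher and 29.5% lower (median 0.03). The interstitial collagenase MMP1 went from 32 to 36 CPM to 6727 to 7303 (7.68 ± 0.12), and MMP3 from 43 to 51 to 5473 to 6027 (6.93 ± 0.11); both are made as inactive precursors. With the hairpin 3 were higher and 3 lower (median -0.10): MMP3 fell to 2742, 3095 and 3476 CPM (-0.88 ± 0.08), HGF, a growth factor activated by proteolysis, fell (-0.60 ± 0.09), and MMP1 did not pass (-0.21 ± 0.09, adjusted p = 0.0538). With Tri-1 none were higher and 3 were lower (median -0.18), led by the basement membrane chain LAMC1 (-0.50 ± 0.06) and fibronectin, FN1 (-0.25 ± 0.05), while MMP3 was at -0.10 ± 0.08 (adjusted p = 0.451).

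AP-1 and ETS factors are known to bind promoters of activator genes. Of 9, 6 were higher and 1 lower in senescent control cells (median 0.78), with ETS2 at 1.08 ± 0.05 and FOS rising from 0.555 to 0.752 CPM to 4.55 to 5.68 (2.96 ± 0.17). With the hairpin 2 were higher and 2 lower (median -0.02): ETS1 rose (1.05 ± 0.08), and FOS fell to 1.57 to 1.85 CPM (-1.61 ± 0.15, adjusted p = 8.06e-07). With Tri-1, 1 was higher and 1 lower (median 0.07), FOSL1 at 0.86 ± 0.13 and FOS at -1.24 ± 0.14. FOS was low in every library, at 8.44 CPM at most. The plot of the lists shows these changes side by side with the 5 genes.

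**Figure D4:**
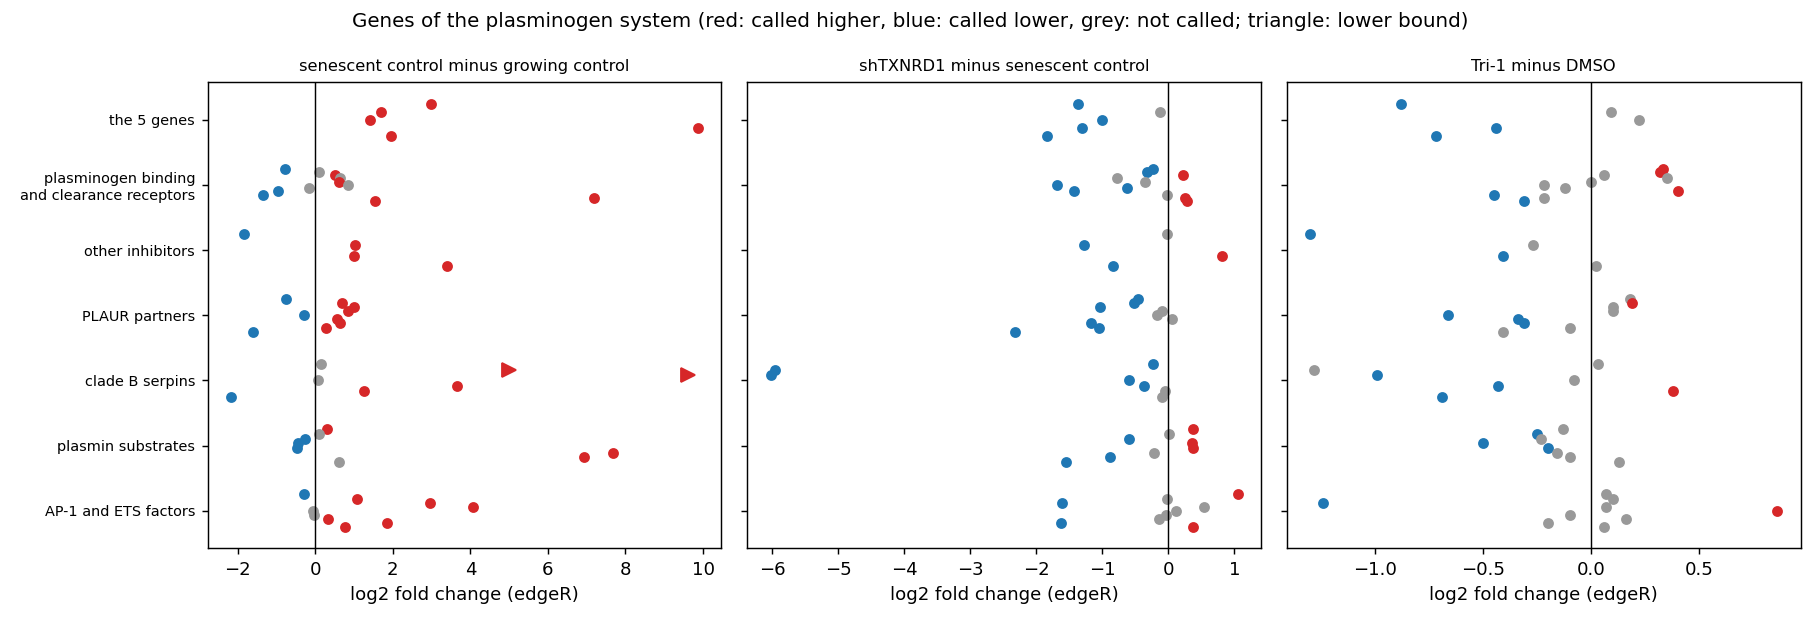
Log2 fold changes (edgeR, a separate range for each panel) of the 5 genes and of 6 lists of the plasminogen system in 3 comparisons; each point is a gene, red called higher, blue called lower, grey not called. Triangles are lower bounds for SERPINB3 and SERPINB4, which had no count in growing cells. PLAUR partners and clade B serpins have blue and grey points but no red with shTXNRD1.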

How the data were processed

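Libraries of DNase-treated IMR90 RNA (KAPA RNA HyperPrep) were read as 75 bp pairs, per the labels' protocols. The deposited table holds whole-number counts per Ensembl gene and library, unscaled, as the differing column totals show. RSEM 1.2.3, DESeq2, hg19 and mm10 appear in the submitters' processing notes with no role. The aligner, annotation, strand setting and treatment of shared reads are, for this table, not given in the sources used here. C10orf55 overlaps PLAU on the opposite strand (16 to 74 counts per library), and RN7SL368P and SERPINB10 overlap PLAUR and SERPINB2 (at most 7 and 10 counts).

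Symbols were found for 52300 of 57736 identifiers. The counts were fitted with edgeR 4.0.16 in R 4.3.3 (TMM, filterByExpr by group, robust quasi-likelihood F test, all 15 libraries in one model with a coefficient per group, 10 residual degrees of freedom). P-values are two-sided, with Benjamini-Hochberg adjustment over the 15994 genes of each of 7 comparisons. SE is the log2 fold change divided by the square root of F, intervals are 95% with 10 degrees of freedom. Exact permutation tests of 3 against 3 cannot go below p = 0.1. The fit was tested on simulated data, drawn from its own estimates of the spread and without the GC profiles of these libraries. Such data cannot show how those profiles affect the calls. Lower bounds use a floor of 3 counts over the group and cover counting error only.

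The members, lists and tests were chosen with earlier results of these data known. Named genes are the 5 members, 3 check genes (TXNRD1, CDKN1A, LMNB1), the 2 smallest p of each list in each of the first 3 comparisons (growing, hairpin and Tri-1), and the 3 genes most like each member (log2 CPM, prior count 2). PECAM1, an endothelial marker, was not analysed here, and 1 leukocyte marker is not reported here. No pair of libraries agreed within sampling noise. Replicate numbers did not pair the libraries. Alternatives were other scalings, filters, tools (DESeq2 1.42.0, limma 3.58.1 voom), a GC correction, a replicate block, the compared groups alone and each library left out; leaving out the 3 libraries of low GC profile together was added after seeing the data. Promoter motifs were searched on both strands.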

Additional observations from a re-analysis of the deposited data

Results flagged for a closer look

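In 4 genes the effect of the hairpin (shTXNRD1 against senescent control) and that of Tri-1 (against DMSO) differed in a test of the difference itself (edgeR quasi-likelihood test, adjusted over all genes). For PLAUR the difference was -1.22 on the log2 scale, with hairpin libraries all below their control and Tri-1 libraries all above theirs. For SERPINE2 it was -1.12, for SERPINB2 -0.85 and for PLAT -0.48, and in these 3 each intervention lay below its own control. Beside it stand the different controls. PLAT was 2.15-fold higher in DMSO than in the senescent control. SERPINB2 was higher there by 0.36 on the log2 scale, a call lost with any 1 library left out. With Tri-1, SERPINB2 at 689 to 718 CPM overlapped the senescent control at 707 to 801. PLAT with Tri-1, at 791 to 819 CPM, lay above the senescent control at 672 to 711. The part of these gaps in the differences was not tested.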

How the results depend on the processing

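Over 35 results (5 genes in 7 comparisons) and their 660 alternative values, 627 kept their side of the threshold, 17 lost the call and 16 gained it. No call changed direction; SERPINE2 in DMSO against senescent control, not called at 0.01, was at -0.01 without senescent control 2. The changed calls were these, as log2 changes. For PLAU with the hairpin, calls were gained with DESeq2 (-0.14) and GC correction (-0.06). For the PLAU difference between interventions they were gained with DESeq2, limma-voom and compared groups alone (-0.22 each) and without the 3 libraries of low GC profile (-0.15); with 1 library left out it ran from -0.26 to -0.17, and GC correction put it at -0.07 (not called). SERPINB2 with Tri-1 ran from -0.46 to -0.42 with 1 library left out. In DMSO against senescent control, PLAU gained the call with GC correction (-0.09, also with the block) and without the 3 libraries (-0.11), and leaving out 1 library put SERPINB2 at 0.33 to 0.42 and left 1 gene called each time. In the hairpin against growing comparison SERPINE2 gained the call with upper-quartile scaling (0.20), a mean CPM of at least 5 (0.21) and GC correction (0.12), and ran from 0.08 to 0.19 with 1 library left out. PLAUR there lost it without genes above 1% of counts in the scaling (0.41), with no filter (0.39), limma-voom (0.40) and compared groups alone (0.50), and ran from 0.23 to 0.59 with 1 library left out. The cause of these changes was not tested.

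Same-numbered libraries correlated at -0.279 to 0.321 in their deviations from the group means, not over 0.1 in every pair, so the number alone is shared. With the replicate block, SERPINB2 in DMSO against senescent control was at 0.36 (adjusted p = 0.0843), leaving 1 gene called there instead of 2, and PLAUR in hairpin against growing cells was at 0.41 (adjusted p = 0.062). The block with GC correction put SERPINE2 there at 0.12 and PLAU in DMSO at -0.09. The block moved no other call. With 3 libraries a group, differences of PLAU and PLAUR under about their intervals cannot be resolved.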
